A study of Homo sapiens with 26 samples.

Results

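Selenoproteins carry selenocysteine (Sec), the selenium analogue of cysteine, at a UGA codon that is a stop signal in other mRNAs. A hairpin in the 3' untranslated region of their mRNAs, the SECIS element, recruits the binding protein SECISBP2 and the elongation factor EEFSEC, which bring Sec-tRNA to the ribosome when it reaches the UGA. The liver makes most of the plasma selenoprotein SELENOP, and it uses the selenium-dependent peroxidases and reductases against oxidized lipids and thiols. Of the 9 selenoproteins examined here, 8 had a codon-resolved row among the 12325 transcripts of the ribo-seq and mRNA-seq tables. They were found by their GENCODE v44 symbol in 7 cases, and GPX1 was found through the transcript list that accompanies the study, because its deposited transcript was not among the GENCODE entries used here. SELENOK had no row and was not analysed here.

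The libraries came from Huh7, a human hepatoma line with hepatocyte features, in which PF-06446846, a small molecule that stalls ribosomes on a small set of nascent chains, was compared with its vehicle, 0.5% DMSO. Study 1 held 18 ribo-seq libraries, with 3 biological replicates each of 1.5 µM, 0.3 µM and vehicle after 10 min and after 60 min. Study 2 held 4 ribo-seq and 4 polyA mRNA-seq libraries, with replicates 4 and 5 of 1.5 µM and vehicle after 60 min, and both assays were made from the same cells. All samples were the same line, and in all of them cycloheximide was added at harvest. CDS reads ranged from 6414227 to 22224137 in ribo-seq and from 15227654 to 22036358 in mRNA-seq. Of 8 hepatocyte markers 7 had a row, with mean levels of 165 to 5658 RPKM (reads per kb of CDS, scaled to the CDS reads of the library) in vehicle ribo-seq of study 1 at 60 min. Of 7 markers of other cell types 2 had a row, the fibroblast marker DCN at 0.195 RPKM and the endothelial marker PECAM1 at 8.07 RPKM. Each library pooled a plate of cells, so a change in some cells and a smaller change in all cells cannot be told apart.

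The Sec codon lies at a different place in each mRNA, and its position decides what can be measured. The bases around it are shown because every ratio of reads before and after Sec is taken across them. They are written 5' to 3' on the coding strand of GRCh38, read with GENCODE v44 models, with the Sec codon TGA in capitals. The deposited GPX1 transcript (ENST00000620890) was placed by an isoform with as many codons, ENST00000703795.
GPX1: gtggcgtccctcTGAggcaccacggtc
GPX4: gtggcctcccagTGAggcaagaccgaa
SELENOW: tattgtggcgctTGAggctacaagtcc
SELENOP, first of 10: cttcaagccagcTGAtacctgtgcata
SELENOP, second of 10: gctcctaggagcTGAtgctgccattgt
SELENOF: gaagtttgtggaTGAaaattgggaagg
TXNRD1: caggctggctgcTGAggttaa
SELENOS: tcatctggcggaTGAggctaa

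Among these genes, the base that follows the first Sec codon was G in GPX1, GPX4, SELENOW, TXNRD1 and SELENOS, A in SELENOF and T in SELENOP. In GPX1, GPX4, SELENOW and SELENOS, the Sec codon was followed by the same codon, GGC for glycine. TXNRD1 and SELENOS ended 2 codons after it, at TAA. All of these codons lie in coding exons.

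GPX1, the abundant cytosolic glutathione peroxidase, has its Sec codon at codon 49 of 203, at chr3:49358132-49358134 on the minus strand. GPX4 (ENST00000611653), which reduces lipid hydroperoxides in membranes, has it at codon 46 of 171, at chr19:1105403-1105405 on the plus strand. SELENOW (ENST00000601048), a small thioredoxin-like protein, has it at codon 13 of 88, at chr19:47780732-47780734 on the plus strand. SELENOP (ENST00000514985), the plasma selenium carrier, has 10 in 382 codons, the first at codon 59, at chr5:42808177-42808179, and the second at codon 300, at chr5:42800966-42800968, both on the minus strand. SELENOF (ENST00000370554), a partner of the glycoprotein folding sensor of the endoplasmic reticulum, was represented by a short isoform of 125 codons with Sec at codon 96, at chr1:86880690-86880692 on the minus strand. TXNRD1 (ENST00000526390), the cytosolic thioredoxin reductase, has it at codon 542 of 544, at chr12:104348413-104348415 on the plus strand. SELENOS (ENST00000526049), a membrane protein of endoplasmic reticulum degradation, has it at codon 188 of 190, at chr15:101272777-101272779 on the minus strand. SELENOT, a thioredoxin-like protein of the endoplasmic reticulum, was represented by a transcript of 138 codons (ENST00000485923) whose CDS at chr3:150622422-150627131 starts downstream of the Sec codon, so it gave levels and no ratio across Sec.

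The next question was how high the footprint level of each selenoprotein was in vehicle cells. In vehicle ribo-seq of study 2, SELENOF had the highest level of the 8, at 302 and 320 RPKM in replicates 4 and 5. GPX4 followed at 229 and 206 RPKM. TXNRD1, at 161 and 148 RPKM, and SELENOP, at 141 and 161 RPKM, overlapped. GPX1, at 117 and 107 RPKM, overlapped SELENOS, at 113 and 102 RPKM. SELENOW, at 36.9 and 43.5 RPKM, overlapped SELENOT, at 37.3 and 34.8 RPKM, and these were the lowest. The order was different in the mRNA of the same cells. There GPX4 stood at 1368 and 1161 RPKM and GPX1 at 955 and 1076 RPKM, both above SELENOP at 183 and 207 RPKM. SELENOW was at 175 and 147 RPKM, SELENOF at 109 and 98.6, SELENOT at 100.9 and 80.2, TXNRD1 at 99.7 and 95.5, and SELENOS at 78.2 and 72.0.

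Over the 22 ribo-seq libraries of all treatments, SELENOF varied least, from 257 to 357 RPKM, a 1.39-fold range. TXNRD1 ranged from 113 to 161 RPKM, a 1.43-fold range. SELENOW varied most, from 10.8 to 43.5 RPKM, a 4.03-fold range, on 20 to 145 reads a library. GPX4 ranged from 206 to 508 RPKM and GPX1 from 86.9 to 166 RPKM. SELENOP ranged from 122 to 270 RPKM, SELENOS from 76.7 to 124 RPKM and SELENOT from 34.1 to 75.7 RPKM. The 4 ribo-seq libraries of study 2 held the lowest SELENOT values and the highest SELENOW values, and study and library preparation cannot be told apart.

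**Figure D1:**
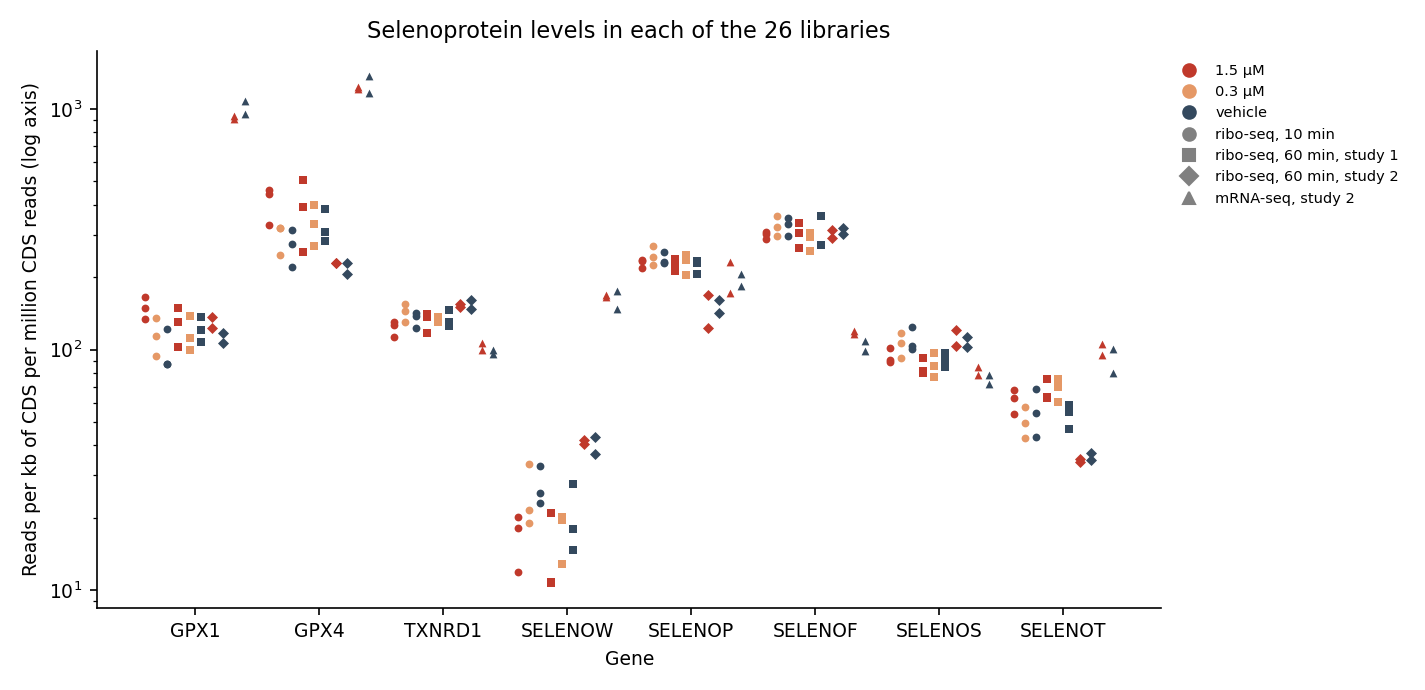
Level of each selenoprotein (x axis) in each of the 26 libraries, in RPKM on a log axis, coloured by treatment, with ribo-seq and mRNA-seq marked by different symbols. GPX1 and GPX4 have mRNA-seq levels near 1000 RPKM, while their ribo-seq levels lie between 86.9 and 508 RPKM.

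Footprints per mRNA, the ribo-seq level divided by the mRNA-seq level of the same culture, separated the 8 genes. GPX1 had 0.122 and 0.0992 in the vehicle cultures 4 and 5, and GPX4 had 0.167 and 0.177. SELENOW had 0.211 and 0.295, and SELENOT had 0.369 and 0.434. SELENOP had 0.771 and 0.781. The SELENOT values cover only codons downstream of its Sec codon, while those of the other genes include the codons before Sec. After Sec alone, SELENOP had 0.369 and 0.397 in the vehicle cultures. The place of SELENOT in this order thus rests on an unlike part of the CDS. The genes above 1 were SELENOS with 1.44 and 1.42, TXNRD1 with 1.62 and 1.55, and SELENOF with 2.77 and 3.24. Neighbours in this order did not overlap in the vehicle cultures, and the order was the same in the cultures treated with 1.5 µM, from GPX1 at 0.146 and 0.135 to SELENOF at 2.49 and 2.61.

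Across all transcripts, the test of vehicle ribo-seq against mRNA-seq in study 2 (edgeR quasi-likelihood, Benjamini-Hochberg FDR of 0.1) called 7 of the 8 selenoproteins, 4 lower and 3 higher in ribo-seq. Of the 11734 transcripts tested, 74.6% were called, 36.7% higher and 37.9% lower, so the share of selenoproteins called was near that of all transcripts. GPX1 was lowest, with a log2 difference of -3.01 ± 0.10 (SE, adjusted p = 4.22e-08), and only 3.68% of the transcripts tested had a lower value. GPX4 was at -2.37 ± 0.11 (adjusted p = 1.94e-07), with 6.26% below it. SELENOW was at -1.84 ± 0.17 (adjusted p = 9.46e-06), and at -3.62 without the first and last 15 codons, which takes out its Sec codon and the codon before it. SELENOT, whose deposited CDS holds no codons before Sec, was at -1.16 ± 0.16 (adjusted p = 0.000181). On the higher side, SELENOF was at 1.75 ± 0.11 (adjusted p = 8.46e-07), above 95.6% of transcripts, TXNRD1 was at 0.83 ± 0.09 (adjusted p = 2.87e-05) and SELENOS was at 0.69 ± 0.11 (adjusted p = 0.000439). SELENOP had a log2 difference of -0.20 ± 0.10 (adjusted p = 0.120). It passed the FDR with the culture as a block (adjusted p = 0.0650) and without the first and last 15 codons.

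**Figure D2:**
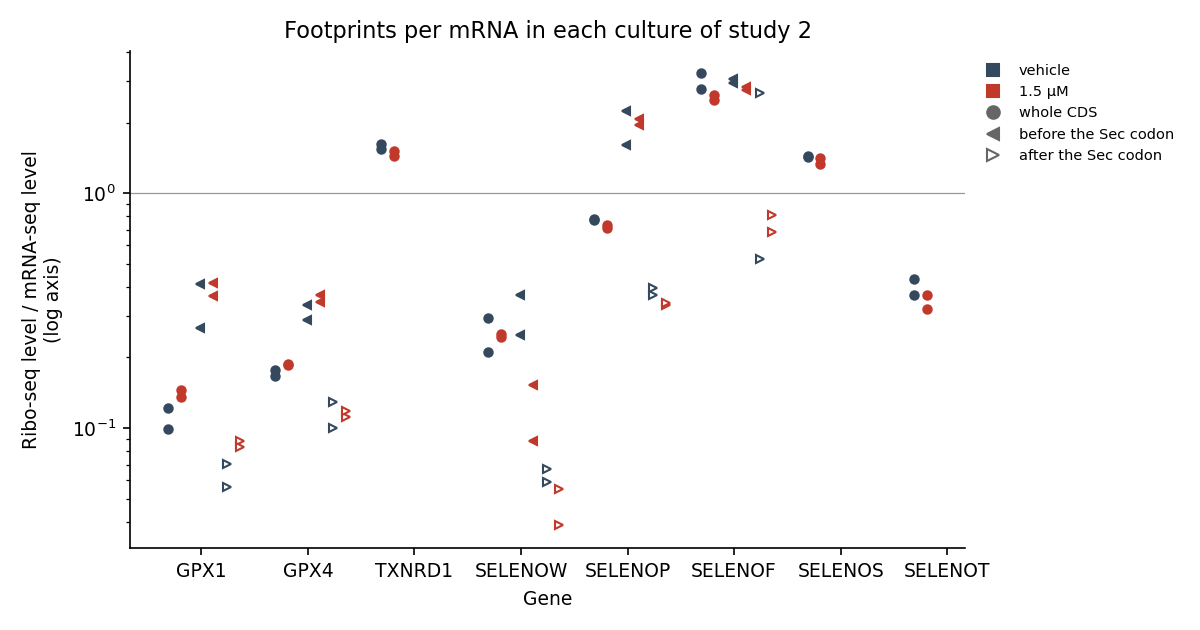
Ribo-seq level divided by the mRNA-seq level of the same culture (log axis) for the 8 selenoproteins in study 2, for 2 vehicle and 2 cultures treated with 1.5 µM. Circles are the whole CDS, filled triangles the codons before Sec and open triangles those after it. For the whole CDS, GPX1 and GPX4 lie lowest, between 0.0992 and 0.188, and SELENOF highest, between 2.49 and 3.24.

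Other genes of selenium metabolism were compared in the same fit. Of the 16 further selenoproteins listed, 11 had a row, and 9 were lower and 1 higher in ribo-seq than in mRNA-seq, with a median log2 difference of -1.07 against -0.03 over all transcripts. The lower ones were SELENON (-1.89), GPX2 (-1.60), GPX3 (-1.47), SEPHS2 (-1.36), SELENOM (-1.08), SELENOO (-1.07), MSRB1 (-0.52), TXNRD2 (-0.40) and SELENOH (-0.36). The higher one was SELENOI (2.23), an ethanolamine phosphotransferase. Among 12 genes of Sec incorporation and selenium supply, 7 were lower and 3 higher, with a median of -0.45. The lower ones were SECISBP2 (-0.97), SCLY, LRP8, SEPHS1, PSTK, EEFSEC and TRNAU1AP, and the higher ones were nucleolin NCL (2.10), the Sec synthase SEPSECS (1.26) and the seryl-tRNA synthetase SARS1 (0.42). The ribosomal protein RPL30, with the highest footprint level of these genes at 1773 RPKM in vehicle ribo-seq, did not pass the FDR (-0.03). Among 18 partners of thiol and oxidant metabolism that use no Sec, 12 were higher and 2 lower, with a median of 0.68. The higher ones were GPX8, SOD2, PRDX3, CAT, GCLM, PRDX1, TXN, SOD1, TXN2, NQO1, PRDX6 and PRDX2, between 0.47 and 1.79, and the lower ones were PRDX4 (-0.25) and PRDX5 (-0.21).

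The codon-resolved reads allow the ribosomes before the Sec codon to be set against those after it. For each library, the mean reads per codon from the first codon after Sec to the third codon before the stop were divided by the mean from codon 2 to the second codon before Sec. In GPX1 this ratio had a median of 0.276 over the 22 ribo-seq libraries (0.174 to 0.358), against 1.40 to 1.80 in the 4 mRNA-seq libraries. In GPX4 it had a median of 0.227 (0.141 to 0.444), against 0.990 to 1.22 in mRNA-seq. The GPX4 ratio in ribo-seq was 0.141 to 0.304 in study 1 and 0.333 to 0.444 in study 2, without overlap. In SELENOP it had a median of 0.139 (0.104 to 0.181) around the first UGA, against 0.599 to 0.882 in mRNA-seq. For these 3 genes, every ribo-seq library was below every mRNA-seq library.

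SELENOF had a ribo-seq median of 0.164 (0.116 to 0.278) and mRNA-seq values of 0.260 to 0.866. Its ranges overlapped through the mRNA-seq library of vehicle replicate 5, in which 51 reads lay after the Sec codon. In vehicle libraries of study 2, the codons from 6 to 9 after Sec of SELENOF held 0 reads in mRNA-seq and 0 in ribo-seq. Over all 4 mRNA-seq libraries, 0 codons of SELENOF were without reads, so the treated mRNA-seq libraries held reads there. SELENOW had a ribo-seq median of 0.150 (0.0278 to 0.394) and mRNA-seq values of 0.898 to 1.04, and 14 of its 22 ribo-seq libraries had fewer than 10 reads on one side, so its ratio is imprecise. When other transcripts were cut at the same codon, their median ratio in ribo-seq was above 1 in every library, from 1.24 to 1.70 at the GPX1 position, 1.26 to 1.75 at the GPX4 position and 1.19 to 1.57 at the SELENOP position. In mRNA-seq it was 1.03 to 1.12 at the GPX1 and GPX4 positions.

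**Figure D3:**
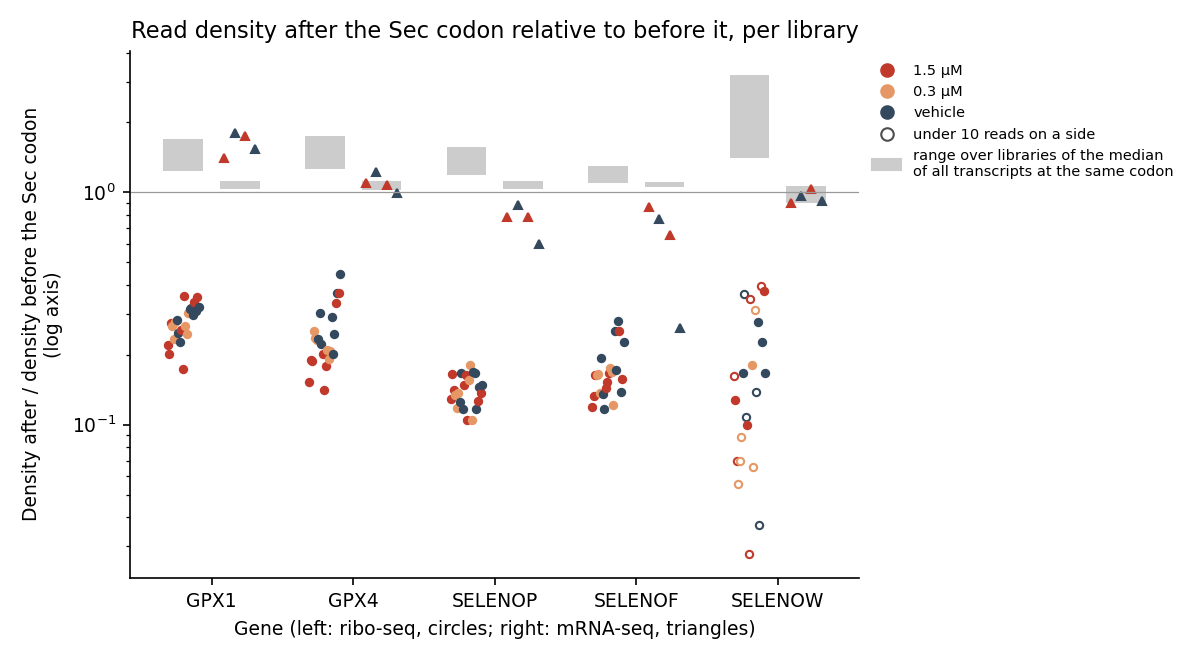
Mean reads per codon after the Sec codon divided by the mean before it (log axis) in each library for GPX1, GPX4, SELENOP, SELENOF and SELENOW, with ribo-seq as circles, mRNA-seq as triangles, open symbols under 10 reads on a side and grey bands for the range over libraries of the median of other transcripts cut at the same codon. The ribo-seq points lie between 0.0278 and 0.444 and the mRNA-seq points between 0.260 and 1.80.

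In vehicle cells of study 2, GPX1 had 0.741 and 0.621 ribo-seq RPM per codon (reads scaled to the CDS reads of the library) before Sec and 0.228 and 0.200 after it, while its mRNA-seq reads were 1.80 and 2.32 before and 3.24 and 3.56 after. GPX4 had 1.18 and 1.01 ribo-seq RPM per codon before and 0.434 and 0.449 after, with 3.54 and 3.51 before and 4.32 and 3.47 after in mRNA-seq. SELENOP had 1.37 and 1.51 before and 0.199 and 0.224 after in ribo-seq, with 0.613 and 0.943 before and 0.540 and 0.565 after in mRNA-seq. Divided by the mRNA of the same culture, the footprints after Sec were 17.1% and 20.97% of those before it in GPX1, 30.1% and 44.8% in GPX4, 16.5% and 24.9% in SELENOP and 23.6% and 18.2% in SELENOW. In SELENOF they were 17.9% and 87.2%, the second value again resting on the mRNA-seq library of replicate 5. Footprints per mRNA in the codons before Sec alone were 0.411 and 0.268 in GPX1, 0.333 and 0.289 in GPX4, 2.23 and 1.60 in SELENOP, 0.250 and 0.368 in SELENOW, and 2.93 and 3.07 in SELENOF. GPX1, GPX4 and SELENOW thus had fewer footprints than mRNA reads on both sides of Sec, and SELENOP after it but not before it. SELENOF had more before Sec and differed between the cultures after it, with 0.524 and 2.67.

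The difference between ribo-seq and mRNA-seq across the Sec codon was tested in vehicle cells of study 2 as an interaction of region and assay, with every other transcript cut at its middle codon and the same edgeR test. Of the 8 genes 5 had at least 20 codons on both sides, and SELENOT among them was cut at its middle codon. GPX1, GPX4, SELENOP and SELENOF were called lower after the cut, 4 of 5, against 9.86% of 11497 transcripts called, 4.72% lower and 5.14% higher. The log2 change across Sec was -2.40 ± 0.14 in GPX1 (adjusted p = 2.15e-08), -2.30 ± 0.17 in SELENOP (adjusted p = 3.9e-07), -1.45 ± 0.14 in GPX4 (adjusted p = 8.74e-06) and -1.44 ± 0.38 in SELENOF (adjusted p = 0.0304). SELENOT was at -0.82 ± 0.28 (adjusted p = 0.1004). The SELENOF call was lost with DESeq2 (-1.35, adjusted p = 0.650), without the end codons (-1.21, adjusted p = 0.312), without ribo-seq vehicle replicate 4 (-1.07, adjusted p = 0.295) and without mRNA-seq vehicle replicate 4 (-0.57, adjusted p = 0.148). SELENOT, which has no Sec codon in its deposited CDS, was called lower without mRNA-seq vehicle replicate 4 (-0.69, adjusted p = 0.0579) and without mRNA-seq vehicle replicate 5 (-0.93, adjusted p = 0.0133). The count of genes called was therefore 3 to 5 of 5 when a library was left out. The calls of GPX1, SELENOP and GPX4 held under each of the 8 alternatives run for this test, with GPX1 between -2.63 and -2.29, SELENOP between -2.73 and -2.03 and GPX4 between -1.76 and -1.31.

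The same test covered 7 of the further selenoproteins, and 7 of 7 were lower after Sec, with a median of -2.11 against -0.01 over all transcripts. These were SELENOH (-3.80), GPX2 (-2.94), GPX3 (-2.27), SEPHS2 (-2.11), MSRB1 (-1.54), SELENON (-1.53) and SELENOM (-1.30). Among the genes of Sec incorporation, which were cut at their middle codon, 1 of 12 was lower (SARS1, -0.57) and none higher. Among the thiol partners without Sec, 5 of 18 were higher (PRDX5, TXN, PRDX2, PRDX6 and PRDX1, 0.48 to 1.05) and none lower.

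**Figure D4:**
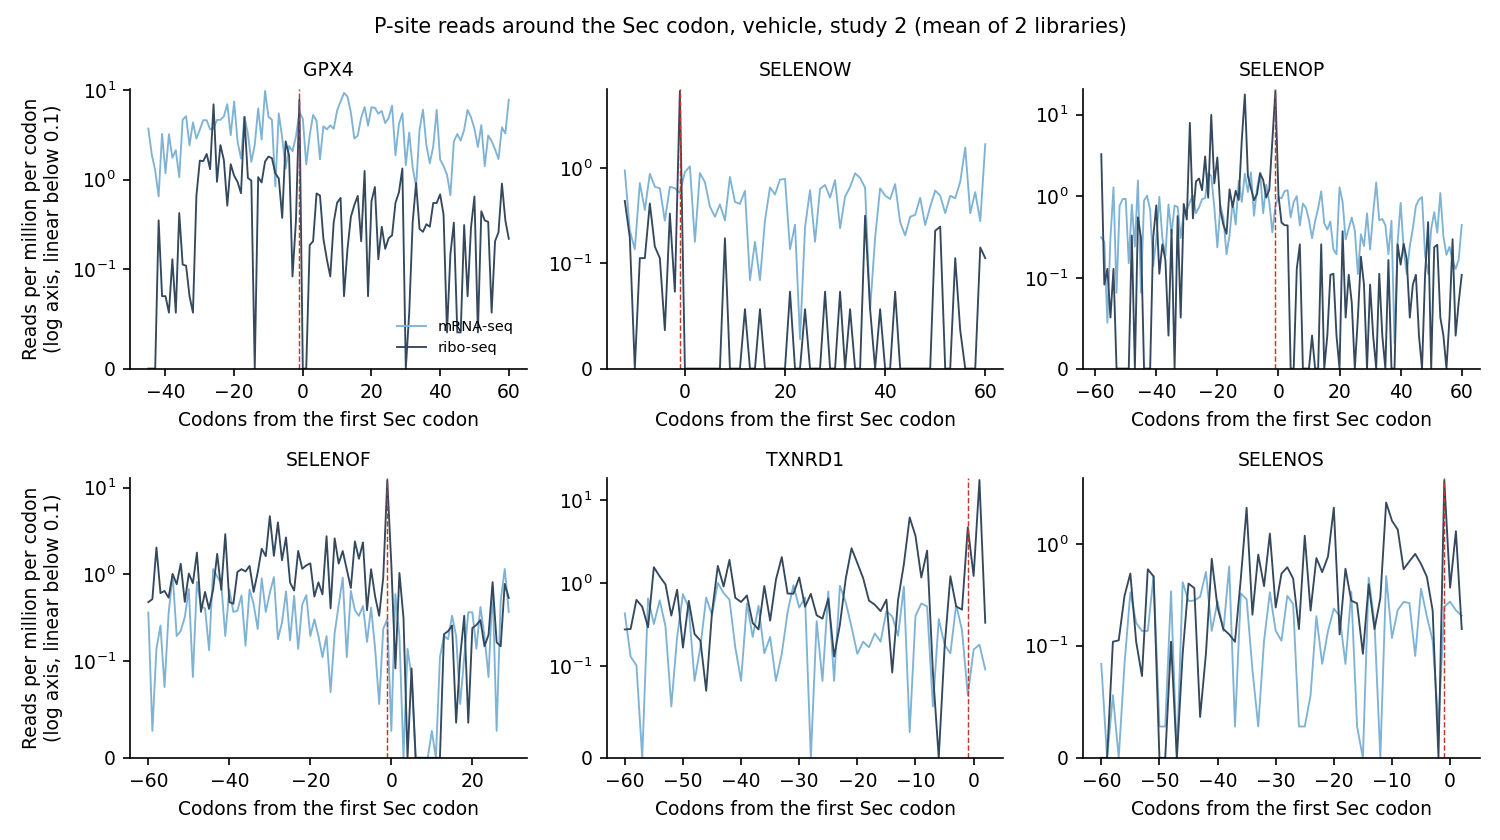
RPM per codon by codon position relative to the Sec codon (x axis, codons; dashed line at the codon before Sec) in vehicle ribo-seq and mRNA-seq of study 2, as means of 2 libraries, on an axis that is logarithmic above 0.1. In GPX4, SELENOW, SELENOP and SELENOF the ribo-seq line is lower after the dashed line than before it and has a spike on it, and TXNRD1 and SELENOS end just after it.

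A ribosome that waits with UGA in its A site places its P site on the codon before Sec. The density at that codon, relative to the mean of the codons before it, was therefore compared with the same position in other transcripts. SELENOP had a median of 24.6 over the 22 ribo-seq libraries (6.76 to 33.4) and SELENOW a median of 45.5 (17.3 to 185.0). Both genes were above the 95th percentile of other transcripts at the same codon in 22 of 22 ribo-seq libraries and in 0 of 4 mRNA-seq libraries. SELENOW had 14 to 111 reads at the codon before Sec and 2 to 19 in all codons before that, so its ratio is imprecise. The other transcripts had at least 10 reads on each side of the cut, which SELENOW lacked in 14 of its 22 ribo-seq libraries. GPX4 had a median of 6.60 (0.493 to 18.2), above that percentile in 11 of 22 libraries, and SELENOF had a median of 4.91 (0.618 to 24.3), above it in 10 of 22. In the remaining libraries, GPX4 and SELENOF were at or below that percentile of ordinary codons. The codon before Sec alone held 16.6% ± 3.59 of all SELENOP CDS reads in vehicle at 10 min and 19.6% ± 1.24 at 60 min (SD, n = 3 each). In mRNA-seq, the medians of the relative density were 1.04 in SELENOP, 0.995 in SELENOW, 1.81 in GPX4 and 1.34 in SELENOF. Among further selenoproteins, the median over the ribo-seq libraries ran from 1.59 in MSRB1 to 207 in SEPHS2, which makes the selenophosphate donor for Sec.

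In GPX1 this density could not be measured, because codons 47 to 51, which surround Sec, had 0 of 19121 ribo-seq and 0 of 43822 mRNA-seq reads over all libraries. Reads were absent there in both assays, and the cause was not tested. TXNRD1 and SELENOS have Sec just before the stop codon, so only the reads with UGA and with the stop codon in the A site can be compared. Their density at the codon before Sec had medians of 8.81 (3.17 to 15.1) and 18.4 (1.17 to 42.2) in ribo-seq, and 0.897 and 1.098 in mRNA-seq. That codon lies close to the stop codon, where the paper reports a buildup of footprints with and without the compound. Other transcripts were not measured at that distance from the stop, so the part of the stop in these values was not tested. In vehicle cells of study 2, TXNRD1 had 53 and 49 reads with UGA in the A site and 239 and 156 with the true stop codon there. SELENOS had 72 and 30 with UGA and 14 and 15 with the stop codon. TXNRD1 had more reads at the stop than at UGA in its median library (2.93 times, 0.433 to 10.0) and SELENOS fewer (0.577 times, 0.194 to 17.5), and both ranges crossed 1.

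Of these genes SELENOP alone has several Sec codons, and its CDS was read in 3 segments. Between the first and the second UGA, the mean reads per codon were 0.0876 of those before the first in the median ribo-seq library (0.0626 to 0.123), against 0.544 to 0.882 in mRNA-seq. After the second UGA they were 3.06 times those of the middle segment (2.27 to 4.29), against 0.999 to 1.38 times in mRNA-seq. Leaving out the codon before each later UGA brought this last ratio to 0.922 (0.669 to 1.40), so the higher reads of the last segment lay on those codons.

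Summed over the 6 vehicle ribo-seq libraries of study 1, the codon before the first UGA of SELENOP held 8.69 times the mean of the 10 codons upstream. The second held 20.5 times, the third 63.1 times, the fourth 62.0 times and the fifth 60.0 times. The sixth held 4.16 times and the eighth 7.50 times, although their upstream windows contain the codon before another UGA, and the seventh held 85.3 times. The ninth, at 1.54 times, and the tenth, at 0.392 times, had such windows too and were little or not above their upstream mean. In mRNA-seq the 10 values were between 0.0230 and 1.76. The lowest was that of the tenth, where the codon held 1 mRNA-seq read against an upstream mean of 43.5. Few reads were thus found at that codon in mRNA-seq too, and its ribo-seq value cannot tell whether footprints were in excess there. Summed over the 2 vehicle ribo-seq libraries of study 2, the first held 5.87 times, the second 13.3, the third 46.8 and the fourth 16.3 times, and the fifth had the highest value of the 10. The upstream means of the third, the fourth, the fifth and the seventh were 1.0 to 2.7 reads a codon there. The sixth held 7.39 times, the seventh 17.8, the eighth 17.6, the ninth 0.773 and the tenth 0.363 times. The codons before the first 8 UGAs were thus above their upstream mean in both studies, and the sizes differed most at the fourth and the seventh. These ratios come from summed reads and describe the libraries together.

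The compound comparisons ask whether PF-06446846 moved any of these genes. After 10 min with 1.5 µM, GPX1 and GPX4 rose, and they were the 2 selenoproteins of 8 that were called, against 0.851% of 11045 transcripts called, 0.462% higher and 0.389% lower (edgeR quasi-likelihood, FDR of 0.1). GPX1 had 102.7, 92.4 and 82.9 CPM (counts scaled to the effective size of each library) in the 3 treated libraries and 51.9, 51.0 and 74.8 in the 3 vehicle libraries. Its log2 fold change was 0.65 ± 0.15 (adjusted p = 0.0971), and all treated libraries were above all vehicle libraries. GPX4 had 240.4, 232.2 and 171.9 CPM treated and 137.9, 108.0 and 161.3 in vehicle. Its log2 fold change was 0.66 ± 0.15 (adjusted p = 0.0990), also without overlap. Vehicle replicate 3 had the highest vehicle value of both genes. Without it both were called (adjusted p = 0.00318 and 0.0101), as were 1656 transcripts in all in place of 94.

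Both calls were close to the threshold. Neither held at an FDR of 0.05 or when all 18 libraries of study 1 shared a fit, and both held with DESeq2. GPX1 was lost in 5 and GPX4 in 4 of the 6 fits that left out a library, with log2 fold changes of 0.55 to 0.85 and 0.52 to 0.80. The remaining selenoproteins gave log2 fold changes of -0.63 ± 0.24 in SELENOW (adjusted p = 0.214), 0.22 in SELENOT, -0.17 in SELENOS, -0.08 in SELENOF, -0.07 in TXNRD1 and -0.00279 in SELENOP. SELENOW had 4.88, 5.45 and 3.21 CPM treated and 5.97, 8.30 and 6.76 in vehicle, so its groups did not overlap either. The share of all transcripts whose groups did not overlap was not counted, in this or any other comparison, so such a separation cannot be called particular to these genes. The median over the 8 was -0.04, against 0.01 over all transcripts.

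The further selenoproteins had positive values in 10 of 11 cases at this time and dose, with a median of 0.27. By edgeR, 0 of them passed the FDR and 4 had an unadjusted p under 0.05. So did 3 of the 8 selenoproteins above and 1953 of all 11045 transcripts, so such a p was common in this comparison. Among genes of Sec incorporation 0 of 12 passed (1 at the unadjusted p), with a median of -0.000333, and among the thiol partners 0 of 18 (3 at the unadjusted p), with a median of 0.09. Short CDSs moved slightly upwards at 10 min, with a median of 0.08 in the 491 transcripts of up to 100 codons and 0.03 in the 1670 of up to 200 beyond these, and slightly downwards (-0.04) above 1000 codons. GPX4 has 171 codons and GPX1 has 203, and the part of length in their values was not tested.

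**Figure D5:**
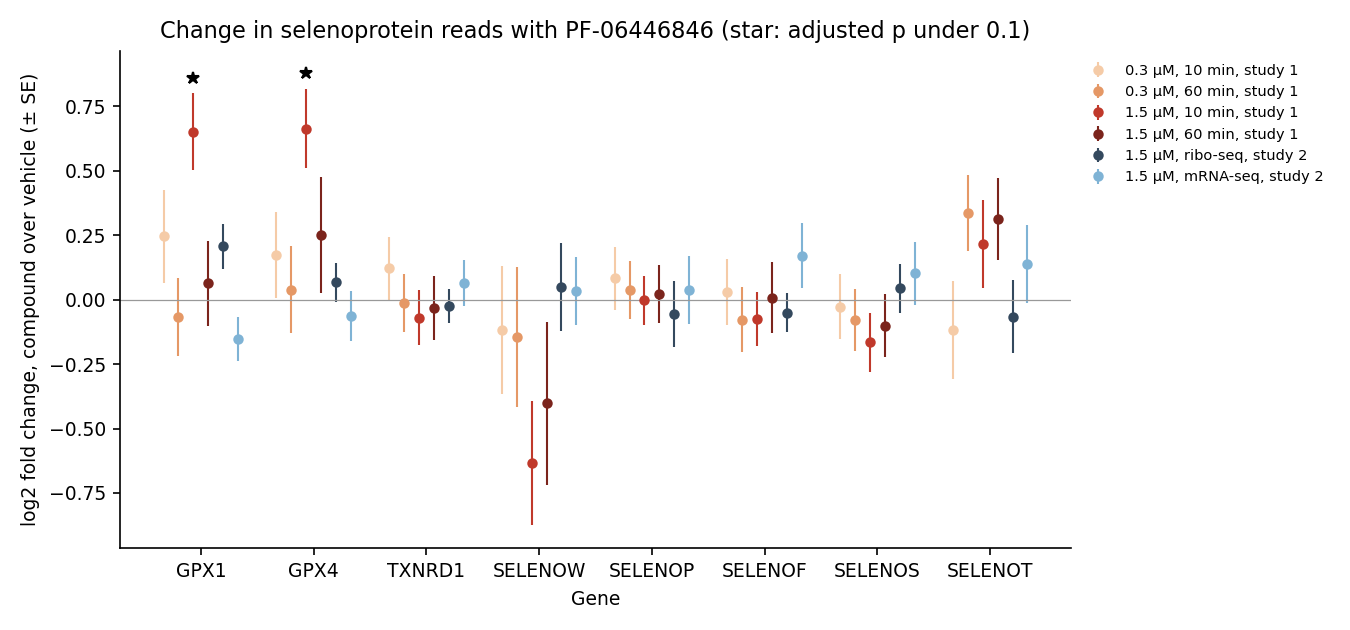
Log2 fold change of compound over vehicle (± SE) for the 8 selenoproteins in each ribo-seq comparison with vehicle and in mRNA-seq of study 2. Stars mark an adjusted p under 0.1, which GPX1 (0.65) and GPX4 (0.66) reached after 10 min with 1.5 µM.

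After 60 min with 1.5 µM, 0 of 8 selenoproteins passed the FDR, by edgeR and by DESeq2, 0 had an unadjusted p under 0.05, and 0.0726% of transcripts were called (51 in place of 8 with the replicate number as a block, still 0 of the 8). The log2 fold changes ran from -0.40 in SELENOW, with 2.79% of the transcripts tested below it, to 0.31 in SELENOT. The SELENOW groups overlapped. GPX1 had 77.8 ± 16.6 CPM against 74.1 ± 8.20 in vehicle (SD, n = 3 each), a log2 fold change of 0.06 ± 0.17. GPX4 had 199 ± 71.2 CPM against 167 ± 28.6, a log2 fold change of 0.25 ± 0.22. Both genes overlapped between groups, and the difference between vehicle at 60 and at 10 min was itself 0.40 in GPX1 (unadjusted p = 0.0294) and 0.37 in GPX4 (unadjusted p = 0.0462). Neither passed the FDR (adjusted p = 0.713 for both), nor did any of the 8 genes between the vehicle times, where 0% of transcripts were called by edgeR and 769 had an unadjusted p under 0.05. DESeq2 called 43 of the 603 transcripts to which it gave an adjusted p there, but it gave one to 0 of the 8 selenoproteins, so it did not test them in this comparison. The change of the 1.5 µM effect between the times was itself tested as an interaction over the 18 libraries, and 0 of 8 selenoproteins and 0 of 11258 transcripts were called. It was 0.59 ± 0.27 in GPX1 (unadjusted p = 0.0388, adjusted p = 0.864) and 0.42 ± 0.32 in GPX4 (unadjusted p = 0.214).

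The lower dose of 0.3 µM gave no call among the selenoproteins, at 10 or 60 min, by edgeR or by DESeq2, and 0% of all transcripts were called at either time, with 104 and 97 at an unadjusted p under 0.05. At 10 min, 0 of 8 had an unadjusted p under 0.05, and GPX1 was at 0.25 ± 0.18 and GPX4 at 0.17 ± 0.17. At 60 min, 1 of 8 had one, SELENOT at 0.34 ± 0.15 (unadjusted p = 0.0401), with 30.4, 25.1 and 29.4 CPM against 18.8, 24.9 and 22.9 in vehicle. SELENOT was also above vehicle in every library of 1.5 µM at 60 min, with 25.0, 32.1 and 26.6 CPM against 18.8, 24.9 and 22.8 (0.31 ± 0.16, unadjusted p = 0.0735). Both doses were compared with the same 3 vehicle libraries, whose CPM differ slightly because each comparison was scaled on its own. How many of all transcripts were above vehicle in every library was not counted.

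A large part of the SELENOT footprints lay on the last sense codon, where ribosomes wait for termination. In study 1 this codon held 18.2% ± 2.58 of its CDS reads in vehicle at 10 min and 30.6% ± 9.18 with 1.5 µM (SD, n = 3 each). At 60 min it held 24.6% ± 2.79 in vehicle, 28.9% ± 6.68 with 1.5 µM and 30.4% ± 7.74 with 0.3 µM. In study 2 it held 13.6% ± 3.93 in vehicle and 11.4% ± 0.200 with 1.5 µM (n = 2 each), and 0.267% in vehicle mRNA-seq.

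In study 2, after 60 min with 1.5 µM, 0 of 8 selenoproteins passed the FDR in ribo-seq, by edgeR and by DESeq2, 1 had an unadjusted p under 0.05, and 0.115% of transcripts were called, 0.107% lower and 0.00888% higher. That gene was GPX1 at 0.21 ± 0.09 (unadjusted p = 0.0348), while 335 of all 11263 transcripts had an unadjusted p under 0.05. Its footprints per mRNA were 0.146 and 0.135 in the treated cultures against 0.122 and 0.0992 in vehicle. In mRNA-seq 0 of 8 passed, by edgeR and by DESeq2, 0 had an unadjusted p under 0.05, and 0% of transcripts were called. There the values ran from -0.15 in GPX1 to 0.17 in SELENOF. SELENOT, which was above vehicle at 60 min in study 1, was at 35.3 and 34.1 RPKM with the compound and 37.3 and 34.8 in vehicle in ribo-seq of study 2. The groups overlapped there, and its log2 fold change was -0.07 ± 0.14. For the change in translational efficiency, the interaction of assay and treatment, 0 of 8 passed by edgeR or DESeq2, 1 had an unadjusted p under 0.05, and 0.0339% of transcripts were called (13 in place of 4 with the culture as a block, 0 of the 8 in both). The gene with such a p was GPX1 at 0.35 ± 0.12 (unadjusted p = 0.0127), against 357 of all 11799 transcripts, and SELENOT was at -0.21 ± 0.21.

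The ribosomes before and after Sec were also compared between compound and vehicle. At 10 min with 1.5 µM, 1 of 5 genes tested was called, GPX4, whose density after Sec fell relative to that before it by 0.50 ± 0.14 on the log2 scale (adjusted p = 0.0458). Of all 10716 transcripts tested, 7.47% were called, 6.2% lower and 1.28% higher. GPX4 had 2.87, 2.83 and 2.41 RPM per codon before Sec with the compound and 1.73, 1.32 and 1.97 in vehicle. After Sec it had 0.438, 0.538 and 0.455 with the compound and 0.402, 0.399 and 0.438 in vehicle. The groups did not overlap before Sec, and after it the lowest treated library (0.4378) was just under the highest vehicle library (0.4383). Other transcripts cut at the same codon had median ratios of 1.29, 1.30 and 1.39 with the compound and 1.75, 1.55 and 1.57 in vehicle. The GPX4 call was lost without the end codons (-0.41, adjusted p = 0.113) and in 3 of 6 fits that left out a library (adjusted p = 0.0244 to 0.203).

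GPX1 had 1.19, 1.11 and 0.846 RPM per codon before Sec with the compound and 0.574, 0.613 and 0.886 in vehicle. After Sec it had 0.263, 0.224 and 0.232 with the compound and 0.162, 0.152 and 0.200 in vehicle. Its log2 change across Sec was -0.13 ± 0.15, that of SELENOP 0.10 ± 0.14 and that of SELENOF -0.12 ± 0.22, and none passed the FDR. Elsewhere, NCL (-0.68) and LRP8 (-1.05) were lower among 12 genes of Sec incorporation, and SOD2 (-0.93), SRXN1 (-0.76), TXN2 (-0.62), PRDX3 (-0.44) and GCLM (-0.39) lower and CAT (0.46) higher among 17 thiol partners. Of 7 further selenoproteins 0 passed, with 1 at an unadjusted p under 0.05, against 1913 of all 10716 transcripts.

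At 60 min with 1.5 µM, 0 of 5 genes passed by edgeR, nor did any of the 4 to which DESeq2 gave an adjusted p, against 0.131% of transcripts, 0.121% lower and 0.00935% higher. By edgeR, 2 of the 5 had an unadjusted p under 0.05, against 470 of all 10700 transcripts. These were GPX4 at -0.48 ± 0.18 (unadjusted p = 0.0151) and SELENOF at -0.58 ± 0.22 (unadjusted p = 0.0165). All 5 values were negative, from -0.58 to -0.13, with a median of -0.41 against -0.04 over all transcripts. The SELENOF value changed sign, to 0.29, without the end codons. In study 2, 0 of 5 passed by edgeR and 0 of 4 by DESeq2, 0 had an unadjusted p under 0.05, and 0.501% of transcripts were called, 0.456% lower and 0.0456% higher. There the values ran from -0.19 in GPX4 to 0.20 in SELENOF. Of these 5, 3 were positive, with a median of 0.13 against -0.02 over all transcripts.

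The density at the codon before UGA was compared between 1.5 µM and vehicle in study 1 with a two-sided exact permutation test over libraries, for 6 genes at 2 times, which makes 12 comparisons. With 3 libraries against 3 the smallest p this test can give is 0.1, so none could pass a threshold of 0.05. The groups overlapped in 10 of the 12, and the share of other transcripts whose groups overlapped at such a codon was not counted. In SELENOF at 10 min the relative density at the codon before Sec was 2.34 ± 0.430 with the compound and 12.96 ± 9.83 in vehicle (SD, n = 3 each, exact permutation p = 0.1), and 1 vehicle library reached 24.3. In SELENOP at 60 min it was 31.2 ± 1.91 against 26.1 ± 1.57 (exact permutation p = 0.1). Study 2 had 2 libraries a group and was not tested. SELENOF had 7.35 and 6.85 with the compound there and 13.38 and 10.51 in vehicle, without overlap, while its groups at 60 min in study 1 overlapped. SELENOW had 185.0 and 99.0 with the compound and 43.7 and 40.7 in vehicle, also without overlap, on 6 to 19 reads in the codons before. Groups of 2 libraries separate easily, so these values only describe the libraries. GPX4, TXNRD1 and SELENOS overlapped in study 2. SELENOP had 6.76 and 13.46 with the compound and 13.41 and 13.96 in vehicle, so 1 treated library was below both vehicle libraries and the other between them.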

How the data were processed

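Ribosome footprints and polyA mRNA fragments of Huh7 cells were sequenced. The deposited values are raw read counts per codon, which the authors made by removing adapters and rRNA reads, aligning with Bowtie 1.1.2 to the most abundant isoform of each expressed GRCh38 gene (kallisto 0.42.5, TPM of at least 1), counting a read at each of up to 5 best sites and assigning the P site with an offset of 14 nt. Reads shared with near-identical transcripts therefore cannot be told apart.

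Here counts were summed over each CDS (or each side of the Sec codon) and fitted over all transcripts in edgeR 4.0.16 (R 4.3.3) with filterByExpr, TMM factors, glmQLFit and glmQLFTest, using the compared libraries alone and no block. Calls were made at an FDR of 0.1 (Benjamini-Hochberg). DESeq2 1.42.0 was an alternative. Region tests used each library as a block and at least 20 codons on a side. The region test asks whether reads after against before the cut differ between groups. Levels were reads per CDS kb scaled to each library's CDS reads, and their ratios carry no test. The rule for named genes covers all members in every comparison, though the text leaves out some values of members that were not called. The rule also takes genes of the further lists where they were called or were among the 3 with most footprints per codon (SELENOH, SEPHS2 and MSRB1, then RPL30, NCL and SEPHS1, then PRDX1, TXN and SOD1). The members and lists were chosen with earlier results of these data known. Scripts were tested on simulated counts with 200 changed transcripts. Exact permutation tests used scipy 1.17.1 (Python 3.11.15). One alternative, leaving out codons without mRNA-seq reads, was chosen after seeing the data. No column of other samples was used. Precision follows the 6414227 to 22224137 CDS reads of a library, and no molecular identifiers are described, so reads are not independent molecules. Same-numbered libraries deviated together at 60 min (r = 0.41 to 0.55 over 9690 transcripts) and for 0.3 µM at 10 min (0.15 to 0.54). There the numbers were read as pairs in the alternative fits with a block. The main fits and their p-values ignore this pairing. For 1.5 µM at 10 min r was 0.0657 to 0.239, which overlaps the range of 0.3 µM, so whether those libraries pair is unclear. Between vehicle at 60 and at 10 min r was -0.0678, -0.0686 and 0.491 in replicates 1, 2 and 3. In study 2 both assays were made from the same cells, so the same number within a treatment was taken as a culture. Across treatments, the 2 numbers of study 2 were not taken as pairs, though r was 0.283 in ribo-seq there. The values of r overlapped between comparisons read as pairs and others, so r alone does not settle which libraries pair. The study calls the replicates of study 1 biological. It uses the same word for the replicates averaged in its read density plots, which include those of study 2. The p-values of study 2 rest on 2 libraries a group.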

Additional observations from a re-analysis of the deposited data

How the results depend on the processing

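Of 138 alternative values of the called results, 0 changed sign and 22 were no longer called, and of 900 alternative values of uncalled results, 79 changed sign and 7 were newly called. The count of selenoproteins called at 10 min with 1.5 µM was 2, and became 0 at an FDR of 0.05, 0 with all 18 libraries in a fit, 1 without the first and last 15 codons and 0 to 2 when a library was left out. The count for ribo-seq of study 2 was 0, and 0 to 1 when a library was left out (SELENOP without 1.5 µM replicate 5). The count for the density after against before Sec at 10 min was 1, and became 0 without the end codons and 0 to 1 when a library was left out. Over all transcripts, the 94 calls at 10 min with 1.5 µM became 29 at an FDR of 0.05, 30 with all 18 libraries in a fit, 232 without the end codons, 519 with DESeq2 and 9 to 1656 when a library was left out. The 8 calls at 60 min became 14 with all 18 libraries, 17 with DESeq2 and 0 to 8 without a library, the 13 of ribo-seq in study 2 became 10 to 129 without a library, and the 4 of translational efficiency became 11 with DESeq2 and 1 to 128 without a library. For reads after against before the cut, the 801 calls at 10 min became 465 at an FDR of 0.05, 397 with DESeq2 and 205 to 1162 without a library, and the 14 at 60 min and 55 in study 2 both became 27 with DESeq2. Without a library, the 14 became 7 (vehicle replicate 2 left out) to 19 and the 55 became 29 (vehicle replicate 4 left out) to 66. The 1134 calls of ribo-seq against mRNA-seq across the cut became 749 at an FDR of 0.05, 471 with DESeq2 and 329 to 3809 without a library. The cause of these differences was not tested. With the replicate number as a block, ribo-seq against mRNA-seq called 8 members (SELENOP added), as it did without the first and last 15 codons. The comparisons with compound read as pairs called 0 of 8, with 51 of all transcripts at 60 min with 1.5 µM. Translational efficiency, where the block is the culture, called 0 of 8 and 13 of all. Ribo-seq with compound in study 2, whose cultures share only a number across treatments, called 0 of 8 and 129 of all (13 without the block). The 10 min comparison with 1.5 µM, where same-numbered libraries were weakly related (r = 0.0657 to 0.239), called 3 of 8 and 1196 of all (94 without the block). The vehicle ratio after over before Sec in study 2 was 0.253 in GPX1, 0.285 in GPX4 and 0.102 in SELENOP without the end codons. It was 0.341 in GPX1, 0.133 in SELENOP and 0.130 in SELENOW without the codons above the 95th percentile of their side, and 0.299 in GPX1 without the codons that have no mRNA-seq reads. SELENOW and SELENOF are limited by few reads after Sec.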
